A study of Rattus norvegicus with 8 samples.

Results

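The inhibin, activin, follistatin and AMH system was followed through 10 genes, of which 9 have a row under their symbol among the 13915 named genes of the arrays. They are the inhibin and activin subunits *Inha*, *Inhba* and *Inhbb*, the activin-binding protein *Fst*, the receptors *Acvr2a*, *Acvr2b* and *Tgfbr3*, and *Amh* with its receptor *Amhr2*. *Acvr1b*, a type I activin receptor, has no row under that symbol, and its expression was not analysed here. The genes were chosen by name and role, with earlier results of these data known. Their counts beside those of all named genes are therefore a description and not a test. Each of the 9 has 1 probe set under its symbol. Of the 31099 probe sets 17128 have no symbol, and any further probe sets of these genes among them were not used.

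The study asked whether active protein kinase A (PKA) is enough to give the response of ovarian granulosa cells (GCs) to FSH. GCs of immature Sprague-Dawley rats, 24 days old, were put into primary culture and their RNA was taken 24 hr. later. The EGFP control group (n = 2 arrays) received a lentivirus for green fluorescent protein, and the FSH group (n = 3) received the same virus with FSH at 100 ng/ml. The PKA-CQR group (n = 3) received a lentivirus for a constitutively active mutant of the PKA catalytic subunit, which binds the inhibitory regulatory subunit poorly, and no FSH. Testosterone was present in the medium of all groups. The methods describe 3 separate groups of GCs, and each array holds the RNA of a whole culture. In such samples a change in the share of a cell type and a change in RNA per cell cannot be told apart.

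Inhibins and activins are dimers built from a shared pool of subunits. The alpha subunit pairs with a beta subunit to form an inhibin, which restrains FSH release from the pituitary, while beta subunits paired with each other form activins, which stimulate it and also act within the follicle. Follistatin binds activin and blocks it. AMH, made by GCs of small growing follicles, acts through its own type II receptor and dampens follicle recruitment.

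All 3 subunit genes rose with either stimulus, and to levels that the arrays did not separate between the stimuli. *Amhr2* rose and *Acvr2a* fell with both stimuli as well. *Fst* rose 1.78-fold with FSH, whereas its 1.34-fold higher signal with PKA-CQR did not pass the test. With FSH, 5 of the 9 genes rose and 1 fell, where 25.5% of all named genes were called, 13.4% higher and 12.1% lower. With PKA-CQR, 4 of the 9 rose and 1 fell, where 12.5% of all named genes were called, 6.48% higher and 6.02% lower. Between the stimuli 0 of the 9 were called, where 6.91% of all named genes were, 3.95% with the PKA-CQR level above and 2.96% with it below. A gene was called when its limma p value, adjusted over all named genes by the Benjamini-Hochberg method, was under 0.05. In the direct comparison 1 of the 9 genes, *Fst*, had an unadjusted p under 0.05, and it was called lower with PKA-CQR once the replicate number was a block (limma adjusted p = 0.0371). The methods' t-test, after the same adjustment, called 0 of the 9 genes in each of the 3 comparisons, so the calls with FSH and with PKA-CQR rest on limma. Adjusted in this way, that test called 798 of the 13915 named genes with FSH, 53 with PKA-CQR and 118 between the stimuli. With so few called among all named genes, the absence of calls does not set the 9 genes apart. At an unadjusted p under 0.05 that test had 5 of the 9 with FSH, 7 with PKA-CQR and 1 between the stimuli. The share of all named genes at that threshold is not given, so these counts are not read as a result about the 9 genes. The median log2 fold change of the 9 genes was 0.83 with FSH and 0.42 with PKA-CQR, beside 0.06 and 0.03 over all named genes. Both comparisons with EGFP share the 2 EGFP arrays and are not independent of each other.

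**Figure D1:**
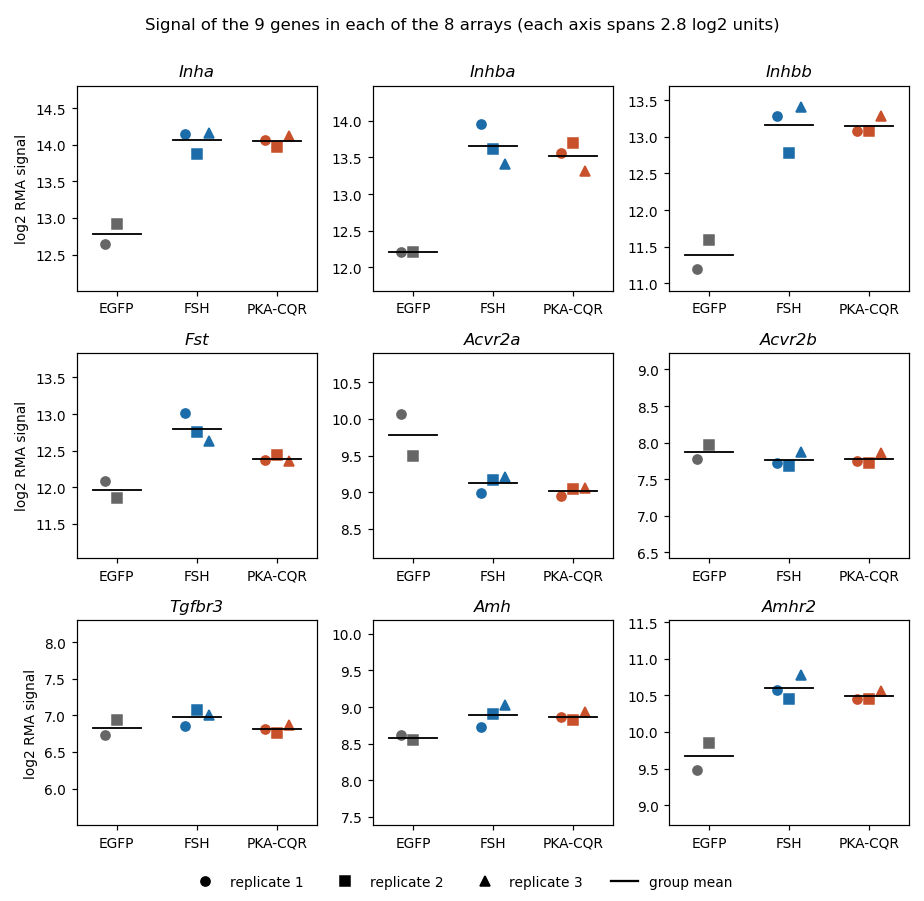
The log2 RMA signal of each of the 9 genes (y axis) in the EGFP (n = 2), FSH (n = 3) and PKA-CQR (n = 3) arrays, with symbols for the replicate number and a line at the group mean. *Inha*, *Inhba*, *Inhbb*, *Fst*, *Amh* and *Amhr2* are higher in all 6 stimulated arrays than in both EGFP arrays, and *Acvr2a* is lower in all 6.

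The bases before the annotated start are shown for 3 of the genes that rose with both stimuli, because each holds a variant of the cAMP response element, the site bound by the PKA substrate CREB. They are RefSeq sequences of the rat build GRCr8, given 5′ to 3′ on the strand of the gene up to the last base before the start, and come from chr9:84442859-84443108 for *Inha* (plus strand), chr17:53804509-53804758 for *Inhba* (minus strand) and chr7:135457672-135457921 for *Amhr2* (plus strand). Capitals mark matches to the motifs searched.
Inha: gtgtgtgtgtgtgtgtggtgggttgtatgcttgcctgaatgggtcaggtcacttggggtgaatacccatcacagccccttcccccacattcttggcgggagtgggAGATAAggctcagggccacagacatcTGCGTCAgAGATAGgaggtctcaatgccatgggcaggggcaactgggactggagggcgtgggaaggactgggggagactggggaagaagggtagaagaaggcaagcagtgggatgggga
Inhba: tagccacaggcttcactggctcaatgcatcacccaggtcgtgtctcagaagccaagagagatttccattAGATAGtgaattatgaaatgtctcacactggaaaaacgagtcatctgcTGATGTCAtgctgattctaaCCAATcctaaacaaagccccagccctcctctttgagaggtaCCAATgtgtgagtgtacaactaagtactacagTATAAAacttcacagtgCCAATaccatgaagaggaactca
Amhr2: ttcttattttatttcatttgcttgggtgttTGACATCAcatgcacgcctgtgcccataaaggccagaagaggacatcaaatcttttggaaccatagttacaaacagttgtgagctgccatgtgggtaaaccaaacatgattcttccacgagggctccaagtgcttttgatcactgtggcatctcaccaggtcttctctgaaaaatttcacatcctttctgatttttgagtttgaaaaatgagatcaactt

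The *Inha* window holds the letters TGCGTCA from 119 to 113 bases before the start, the GATA factor motif AGATAG right after them and, further upstream, the related AGATAA. The first of these is in 1.66% of the 33469 windows of the same length in the table, the second in 7.73% and the last in 10.3%. The *Inhba* window holds TGATGTCA, found in 3.8% of windows, from 133 to 126 bases before the start, with AGATAG further upstream and, nearer the start, CCAAT at 3 places (34% of windows) and TATAAA (12.9%). The *Amhr2* window holds TGATGTCA on the opposite strand, read as TGACATCA, from 220 to 213 bases before the start. The windows of *Acvr1b* (79.6% G and C), *Acvr2b* (76.8%) and *Tgfbr3* (71.2%) hold none of the motifs, where the median over all windows is 51.2% G and C. The window of *Inhbb*, at 86.8%, holds none either. That of *Acvr2a*, which fell, holds the CRE core CGTCA on the opposite strand (18.2% of windows), and that of *Amh* holds AAGGTCA, the site type of steroidogenic factor 1 (3.99%), with TGATAG (6.38%). The full CRE TGACGTCA (1.59% of windows), the GATA form TGATAA (7.97%) and the AP-1 site TGAGTCA (4.05%) were searched too, and 0 of the 9 windows searched, which include that of *Acvr1b* and not that of *Fst*, held any of them. Both strands were read, CGTCA lies within TGCGTCA and TGACGTCA and was counted there too, and the motifs were chosen after the windows had been seen. A match is a run of letters, and binding was not measured.

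*Inha* encodes the alpha subunit, without which no inhibin is formed. Its log2 signal was 12.65 and 12.92 in the EGFP arrays, 14.15, 13.88 and 14.17 with FSH, and 14.07, 13.97 and 14.12 with PKA-CQR. All stimulated arrays lay above both EGFP arrays, and the FSH and PKA-CQR arrays overlapped. *Inha* rose 2.43-fold with FSH (1.28 on the log2 scale, SE 0.12, adjusted p = 9.02e-05 by limma) and 2.41-fold with PKA-CQR (1.27, SE 0.12, adjusted p = 0.000311). The direct difference, PKA-CQR over FSH, was -0.01 on the log2 scale with a 95% confidence interval of -0.25 to 0.23.

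*Inhba* encodes the beta A subunit, which forms activin A with itself and inhibin A with alpha. The log2 signal was 12.21 in both EGFP arrays, 13.95, 13.61 and 13.42 with FSH, and 13.55, 13.70 and 13.32 with PKA-CQR. In both stimulated groups the replicate 3 array was the lowest, and each stimulated array was above EGFP. *Inhba* rose 2.73-fold with FSH (1.45 on the log2 scale, SE 0.16, limma adjusted p = 0.000253) and 2.49-fold with PKA-CQR (1.31, SE 0.16, adjusted p = 0.00118). The direct difference was -0.14 (95% confidence interval -0.46 to 0.19).

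*Inhbb* encodes the beta B subunit of activin B and inhibin B, and had the largest fold change of the 9 genes with either stimulus. Its log2 signal was 11.19 and 11.59 in the EGFP arrays, 13.29, 12.78 and 13.41 with FSH, and 13.08, 13.08 and 13.28 with PKA-CQR. The lowest stimulated array, FSH replicate 2, stood above the higher EGFP array. *Inhbb* rose 3.41-fold with FSH (1.77 on the log2 scale, SE 0.19, limma adjusted p = 0.000212) and 3.38-fold with PKA-CQR (1.76, SE 0.19, adjusted p = 0.000663), and the direct difference was -0.01 (95% confidence interval -0.40 to 0.37). A larger rise was found for 0.87% of all named genes with FSH and for 0.546% with PKA-CQR.

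Whether the subunits changed by unequal amounts was asked within each array, as the log2 signal of 1 gene minus that of another. Such a difference carries the unlike brightness of 2 probe sets, so its size in 1 group is not a ratio of transcripts, and only its change between groups is read. *Inhbb* minus *Inha* was -1.46 and -1.33 in the EGFP arrays, -0.87, -1.10 and -0.76 with FSH, and -0.99, -0.90 and -0.84 with PKA-CQR. The stimulated arrays lay above both EGFP arrays, with a mean change of 0.49 for FSH and 0.48 for PKA-CQR (exact permutation test, two-sided, p = 0.1 for each). That p is the smallest the number of arrays allows, and it was 0.24 after adjustment over the 12 such tests, so no unequal change could pass the test. *Inhba* minus *Inha* overlapped between all groups, with changes of 0.17 and 0.04 (exact p = 0.6 and 0.9). In FSH and PKA-CQR replicate 3 this difference was -0.75 and -0.81, lower than in any other stimulated array, where it ran from -0.51 to -0.20. *Inhbb* minus *Inhba* changed by 0.32 and 0.44 (exact p = 0.6 and 0.3).

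**Figure D2:**
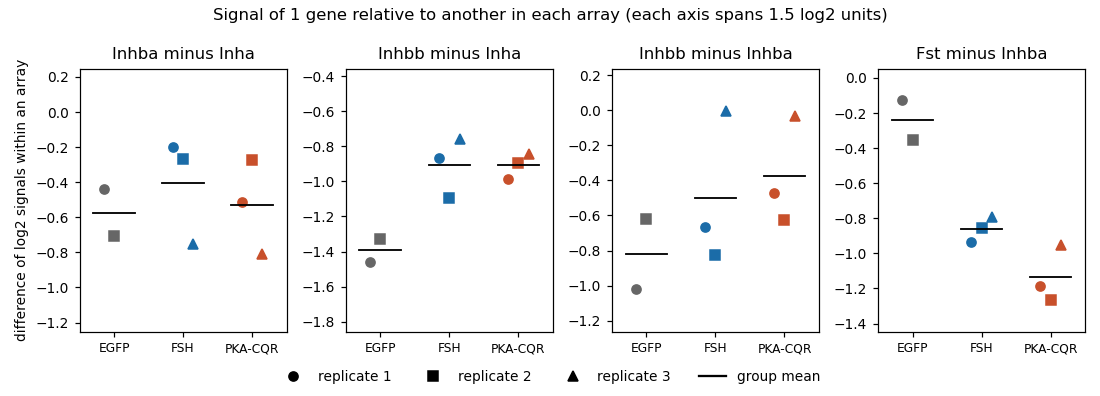
The log2 signal of 1 gene minus that of another within each array (y axis), for the 3 subunit pairs and for *Fst* minus *Inhba*, in the EGFP, FSH and PKA-CQR arrays with the group mean as a line. *Inhbb* minus *Inha* lies higher, and *Fst* minus *Inhba* lower, in the 6 stimulated arrays than in both EGFP arrays.

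*Fst* encodes follistatin, which binds activin tightly and keeps it from its receptors. Its log2 signal was 12.08 and 11.86 in the EGFP arrays, 13.02, 12.75 and 12.63 with FSH, and 12.37, 12.43 and 12.36 with PKA-CQR. The 3 groups did not overlap, with EGFP lowest, PKA-CQR between and FSH highest. *Fst* rose with FSH (0.83 on the log2 scale, SE 0.12, limma adjusted p = 0.00119). With PKA-CQR the log2 difference from EGFP was 0.42 (95% confidence interval 0.15 to 0.70, adjusted p = 0.0566). The direct difference, PKA-CQR over FSH, was -0.41 (95% confidence interval -0.66 to -0.16, adjusted p = 0.0622). Of the 9 genes, *Fst* was the 1 whose FSH and PKA-CQR arrays did not overlap, as was the case for 22.8% of all named genes. In arrays of the same replicate number, PKA-CQR stood below FSH by -0.65, -0.32 and -0.26.

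Both of these *Fst* values lay close to the threshold. With the label's replicate number as a fixed block, the limma adjusted p was 0.0286 against EGFP and 0.0371 against FSH, so both were called. With EGFP replicate 2 placed at number 3 in that block they were 0.0276 and 0.0234. Over the alternatives with an adjusted p, the values ran from 0.0233 to 0.276 and from 0.0132 to 0.224. The differences were called in 9 and 7 of the 20 alternatives that gave a p. Without FSH replicate 3 the adjusted p values were 0.0353 and 0.0335. Without FSH replicate 1 the first was 0.0233, while the direct difference was -0.30 and was not called (0.119).

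*Fst* was also set against *Inhba* within each array, as the binding protein against a subunit of its ligand. *Fst* minus *Inhba* was -0.13 and -0.36 in the EGFP arrays, -0.94, -0.86 and -0.79 with FSH, and -1.19, -1.27 and -0.95 with PKA-CQR. The 3 groups did not overlap. The mean change from EGFP was -0.62 with FSH and -0.89 with PKA-CQR, and from FSH to PKA-CQR it was -0.27 (exact permutation test, two-sided, p = 0.1 for each, the smallest possible, 0.24 after adjustment).

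*Acvr2a* encodes a type II receptor that binds activins and, with lower affinity, inhibins. Its log2 signal was 10.06 and 9.49 in the EGFP arrays, 8.99, 9.17 and 9.20 with FSH, and 8.94, 9.05 and 9.06 with PKA-CQR. The EGFP arrays lay further apart than any arrays of a stimulated group, and both were above all 6 stimulated arrays. *Acvr2a* fell 1.58-fold with FSH (-0.66 on the log2 scale, SE 0.15, limma adjusted p = 0.0134) and 1.69-fold with PKA-CQR (-0.76, SE 0.15, adjusted p = 0.0126), with a direct difference of -0.10 (95% confidence interval -0.42 to 0.21). Without EGFP replicate 1 both calls were lost, at -0.37 (adjusted p = 0.0681) with FSH and -0.47 (adjusted p = 0.0554) with PKA-CQR. EGFP replicate 1 also had the smallest difference between the 3′ and 5′ probe sets of beta-actin, a sign of RNA length, with 1.02 against 1.30 to 1.88 in the other arrays, and its part in the result was not tested.

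The other receptors of inhibin and activin passed the test in 0 of the comparisons. *Acvr2b*, the second type II activin receptor, lay between 7.69 and 7.97 in all 8 arrays. Its log2 difference from EGFP was -0.11 with FSH (95% confidence interval -0.32 to 0.10) and -0.10 with PKA-CQR (-0.31 to 0.11). *Tgfbr3*, or betaglycan, lets inhibin bind the type II receptors and so compete with activin. It was the dimmest of the 9 genes, with a mean log2 signal of 6.88, brighter than 33.4% of named genes. Its difference from EGFP was 0.14 with FSH (95% confidence interval -0.08 to 0.36) and -0.02 with PKA-CQR (-0.24 to 0.20). At these widths a change as large as that of the subunit genes lies outside the intervals of both receptors.

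*Amhr2* encodes the type II receptor of AMH. Its log2 signal was 9.48 and 9.85 in the EGFP arrays, 10.58, 10.45 and 10.78 with FSH, and 10.45, 10.45 and 10.56 with PKA-CQR. All stimulated arrays were above both EGFP arrays. *Amhr2* rose 1.91-fold with FSH (0.94 on the log2 scale, SE 0.13, limma adjusted p = 0.000934) and 1.77-fold with PKA-CQR (0.82, SE 0.13, adjusted p = 0.0042), and the direct difference was -0.12 (95% confidence interval -0.38 to 0.15).

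*Amh*, the ligand, did not pass the test in any comparison. Its log2 signal was 8.62 and 8.55 in the EGFP arrays, 8.73, 8.90 and 9.03 with FSH, and 8.86, 8.82 and 8.93 with PKA-CQR. The lowest stimulated array, FSH replicate 1, was just above the higher EGFP array. The log2 difference was 0.30 with FSH (95% confidence interval 0.08 to 0.52, limma adjusted p = 0.0514) and 0.29 with PKA-CQR (0.07 to 0.51, adjusted p = 0.101), and neither was called. The FSH value was called in 7 of the 20 alternatives that gave a p. Among them were the limma fits without FSH replicate 1 (adjusted p = 0.0163) and with the replicate number as a random block (0.0422). Another was the fixed block with EGFP replicate 2 placed at number 3 (0.0492). With a fixed block by the label numbers the FSH value was not called (0.0809). Counting *Amh* and *Fst*, 7 of the 9 genes had EGFP arrays that did not overlap the stimulated ones in each comparison with EGFP, where 49.2% of all named genes did not overlap with FSH and 40.6% with PKA-CQR.

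**Figure D3:**
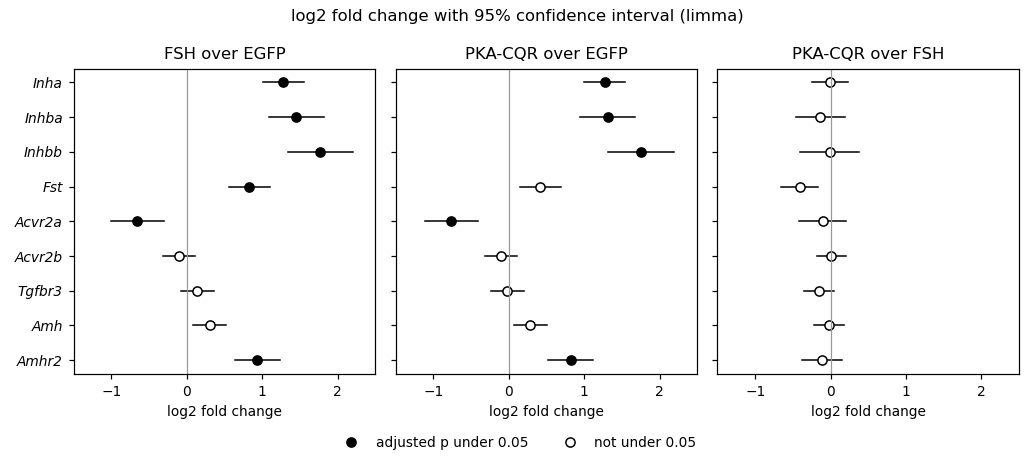
The log2 fold change of the 9 genes (x axis) with its 95% confidence interval from limma, in 3 panels for FSH and PKA-CQR set against EGFP and PKA-CQR set against FSH, with filled points where the adjusted p was under 0.05. The subunit genes and *Amhr2* lie above 0 and *Acvr2a* below 0 with both stimuli, and in the direct comparison the interval of *Fst* alone leaves out 0.

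Of 40 other genes of activin, BMP and AMH signalling, such as receptors, Smads, ligand antagonists and convertases, 35 were measured. With FSH 2 rose, 7 fell and 26 were not called, with PKA-CQR 1 rose and 1 fell, and between the stimuli 2 were higher with PKA-CQR. The shares called were 25.7%, 5.71% and 5.71%, beside 25.5%, 12.5% and 6.91% of all named genes. Their median log2 fold change was -0.02 with FSH and -0.04 with PKA-CQR, beside 0.06 and 0.03 over all named genes. *Bambi*, a decoy receptor without a kinase domain that dampens TGF-beta family signals, rose with FSH (0.94 on the log2 scale, SE 0.11, limma adjusted p = 0.000334) and with PKA-CQR (0.87, adjusted p = 0.00129). *Tgfbr1*, a type I receptor, rose with FSH by 0.29 (adjusted p = 0.0136), a call lost without EGFP replicate 1 (0.0794) or EGFP replicate 2 (0.0536). With PKA-CQR its difference was 0.22 (adjusted p = 0.0716, and 0.0463 with a random replicate block).

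*Fstl1*, which encodes a protein related to follistatin, fell with FSH (-1.09 on the log2 scale, SE 0.16, limma adjusted p = 0.00127). With PKA-CQR its difference of -0.57 was at the threshold (adjusted p = 0.0511). The adjusted p was 0.0214 with a fixed replicate block and 0.00376 with EGFP replicate 2 placed at number 3 in that block. *Pcsk5*, a proprotein convertase, also fell with FSH (-0.74, SE 0.13, adjusted p = 0.0036) and lay above the FSH level by 0.71 in the PKA-CQR arrays (adjusted p = 0.00915), where its difference from EGFP was -0.04 (adjusted p = 0.925). The other 5 that fell with FSH were *Nog*, *Smurf1*, *Ski*, *Smad6* and *Smad1*. *Smurf1*, a ubiquitin ligase that acts on Smads and receptors, fell by 0.57 with FSH (adjusted p = 0.00423) and by 0.54 with PKA-CQR (adjusted p = 0.0111), the latter a call lost without EGFP replicate 1 (0.103). *Nog*, which encodes the BMP antagonist noggin, lay above the FSH level by 0.77 in the PKA-CQR arrays (adjusted p = 0.0274), a call lost without FSH replicate 2 (0.098), FSH replicate 3 (0.0684), PKA-CQR replicate 1 (0.0949) or PKA-CQR replicate 3 (0.088). *Smad2*, *Smad3* and *Smad4*, which carry the activin signal to the nucleus, were picked for that role after their values were seen, and their FSH differences of 0.02, -0.16 and -0.13 did not pass the test.

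**Figure D4:**
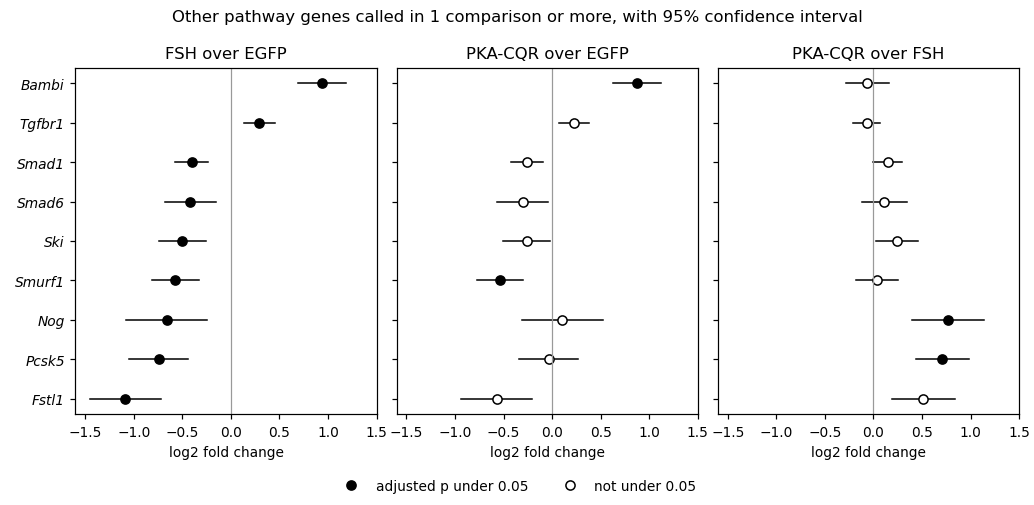
The log2 fold change (x axis) with its 95% confidence interval from limma of the 9 other pathway genes called in at least 1 comparison, with filled points where the adjusted p was under 0.05. *Bambi* rose with both stimuli, and *Fstl1* and *Pcsk5* are the lowest with FSH.

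Of 20 genes for factors and cofactors known to act on subunit or *Amh* promoters 19 were measured, of which 6 rose and 4 fell with FSH, 4 rose and 2 fell with PKA-CQR, and in the direct comparison 2 were higher in the PKA-CQR arrays. The shares called were 52.6%, 31.6% and 10.5%, beside 25.5%, 12.5% and 6.91% of all named genes. This list was made with earlier results of these data known, so its shares are a description and not a test. *Crem*, whose products include a cAMP-induced repressor that binds CRE sites, rose by 1.72 (SE 0.08, limma adjusted p = 3.3e-06) with FSH and by 1.99 (adjusted p = 3.6e-06) with PKA-CQR, on the log2 scale. The files name no isoform for its probe set. *Nr5a1*, which encodes steroidogenic factor 1, rose by 1.23 with FSH (adjusted p = 0.00162) and by 1.03 with PKA-CQR (adjusted p = 0.00819), the latter a call lost without EGFP replicate 1 (0.0795). *Gata4* rose by 1.19 with FSH (adjusted p = 0.00125) and by 1.16 with PKA-CQR (adjusted p = 0.00329).

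*Nr0b1*, which encodes the corepressor DAX-1, fell by 2.60 with FSH on the log2 scale (limma adjusted p = 0.000131) and stood above the FSH level by 1.69 in the PKA-CQR arrays (adjusted p = 0.00337). Its PKA-CQR difference from EGFP was -0.91 (adjusted p = 0.0532). The adjusted p was 0.041 with a fixed replicate block and 0.018 with EGFP replicate 2 placed at number 3 in that block. *Zfpm2*, a GATA cofactor, fell by 1.25 with FSH (adjusted p = 0.00145), and with PKA-CQR its difference was -0.61 (adjusted p = 0.0733). For the latter the adjusted p was 0.00303 with a fixed replicate block and 0.012 with EGFP replicate 2 placed at number 3 in that block. *Wt1*, a zinc finger factor of the gonad, fell by 0.53 with FSH (adjusted p = 0.00242) and by 0.54 with PKA-CQR (adjusted p = 0.00481), the latter a call lost without EGFP replicate 1 (0.0519). *Foxo1*, a forkhead factor, fell by 1.10 with FSH (adjusted p = 0.000142) and by 0.50 with PKA-CQR (adjusted p = 0.019), and was higher there than with FSH by 0.60 (adjusted p = 0.00823). For *Foxo1* with PKA-CQR the call, though not the difference, was lost without EGFP replicate 1 (-0.52, adjusted p = 0.0907), EGFP replicate 2 (-0.48, 0.0949) or PKA-CQR replicate 2 (-0.45, 0.0687).

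Markers of GCs and of other cells of the ovary were read in each array. *Fshr* has no row under that symbol, and the other 9 of 10 GC markers, which include *Inha*, *Amh* and *Amhr2*, summed on the linear scale to 17785 to 20741 in the EGFP arrays, 30662 to 39363 with FSH and 36440 to 40940 with PKA-CQR. Without *Inha*, the brightest, the sums were 11370 to 12994, 15603 to 20976 and 20363 to 23087. Of these 9 markers 6 rose with FSH and 5 with PKA-CQR, where 13.4% and 6.48% of all named genes rose. A rise in their sum is therefore no check of the cell type. *Foxl2* differed from EGFP by -0.03 with FSH and 0.24 with PKA-CQR and was not called. Of the 8 smooth muscle and pericyte markers 4 fell with FSH and 3 with PKA-CQR, where 12.1% and 6.02% of all named genes fell. Their sum was 8415 to 14729 with EGFP, 1498 to 1582 with FSH and 3191 to 3933 with PKA-CQR, and most of it was *Tagln*, without which it was 1594 to 2224, 842 to 945 and 1041 to 1173. *Des*, *Rgs5* and *Pdgfrb* of this list differed by 0.06, 0.10 and 0.09 with FSH and were not called. The 12 theca and stroma markers summed to 17538 to 21262, 11500 to 14052 and 13316 to 16130, with 5 lower and 1 higher with FSH, and 1 lower and 1 higher with PKA-CQR. The gene called higher was *Cyp17a1* each time (0.94 and 0.79 on the log2 scale). Most of the sum was *Aldh1a1*, without which it was 4556 to 6467, 2409 to 3072 and 3597 to 4337. The 9 macrophage and leukocyte markers summed to 3524 to 3559, 2441 to 2807 and 3047 to 3482. Without *Cd14*, the brightest and the 1 called lower with FSH, they summed to 561 to 778, 798 to 1236 and 544 to 795, and 3 were called higher with FSH. The 7 endothelial markers measured had sums of 462 to 484, 410 to 470 and 449 to 496. Of these *Kdr* fell with FSH (-0.59 on the log2 scale, limma adjusted p = 0.00702) and 6 were not called, and with PKA-CQR 0 of the 7 were called. Of the 6 oocyte markers measured, *Zp2* fell with FSH (-0.61 on the log2 scale, limma adjusted p = 0.000955) and 5 were not called. With either stimulus 0 of the 6 surface epithelium markers measured were called. Between the stimuli, 3 of the 12 theca and stroma and 2 of the 8 smooth muscle and pericyte markers were higher with PKA-CQR and 0 lower. Of all named genes 3.95% were higher. Of the endothelial and oocyte markers 1 each was higher. Of the macrophage and leukocyte markers 1 was higher and 1 lower, and 0 of the GC and surface epithelium markers were called. RMA signals have no 0, so absence of a marker cannot be read from them, and the part of these cells in the results above was not tested. Array medians ran from 8.37 to 8.44 and the correlation between arrays of a group from 0.993 to 0.997 across genes, which are not independent replicates.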

How the data were processed

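The authors deposited log2 signals of 8 Affymetrix Rat Genome 230 2.0 arrays, made with RMA (background correction, quantile normalization and a summary per probe set), in a table of 31099 probe sets. The RMA version is not given in the sources used here, and quantile normalization hides a shift shared by all genes. The methods name MAS5.0 values, which were not used, and a Student t test. The 13915 probe sets with a gene symbol were fitted with limma 3.58.1 in R 4.3.3 (lmFit, eBayes, all 8 arrays, no covariate), and p values were adjusted over them. Within-array differences of 2 genes were compared by exact permutation.

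On simulated data with 100 genes changed each way, the fit recovered 70%, 66% and 69% of 1.5-fold changes and 92%, 96% and 95% of 2-fold changes in the comparisons of FSH with EGFP, of PKA-CQR with EGFP and of PKA-CQR with FSH. The simulated noise was independent between arrays, and fewer genes were changed than were called in the data, so these shares need not hold for the real arrays. Precision is limited by the number of arrays.

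The genes and lists were chosen with earlier results of these data known. Named beside the 9 genes are, in each list and comparison, the 2 called genes that rose most and the 2 that fell most, and for each of the 9 genes called with both stimuli the 2 most alike over the arrays. Replicate numbers were taken to pair FSH with PKA-CQR arrays, since the methods describe 3 groups of GCs given all treatments and deviations of the same number correlated at 0.23, 0.44 and 0.62. EGFP replicate 2 correlated at -0.27 and -0.32 with replicate 2 and at 0.52 and 0.41 with replicate 3 of FSH and PKA-CQR. In the order of array codes it comes right before FSH replicate 3, as the other EGFP array does before the FSH array of its number. Its pairing by label is therefore in doubt, and blocks with it at number 2 and at number 3 were both run. Alternatives were other normalizations, filters, variance models and tests, a replicate block and each array left out. Promoter windows came from RefSeq by symbol, which held 9 of the 10 genes and not *Fst*.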

Additional observations from a re-analysis of the deposited data

How the results depend on the processing

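The alternatives gave 1367 values. Of the single values 1090 kept their result, 30 turned direction, 78 lost a call and 49 gained one. Of the counts of called genes 93 stayed equal or close, 15 were lower and 12 higher. In PKA-CQR over FSH, 1 of the 9 genes was called, *Fst*, against 0, after a second quantile normalization, with a replicate block (fixed, random, or with EGFP replicate 2 placed at number 3), with a trended robust variance and with array weights, and 0 to 1 with an array left out. With the block, *Fst* in PKA-CQR over EGFP was called as well. With PKA-CQR over EGFP, 2 other pathway genes were called, against 4 after a second quantile normalization, 4 with the genes below the lower quartile of signal left out, 5 with a random replicate block, 5 with a trended robust variance and 1 to 3 with an array left out. With PKA-CQR over FSH, 2 of them were called, against 4 with array weights and 1 to 3 with an array left out. The methods' t-test, at p under 0.001 or after adjustment, called 0 of the 9 genes and 0 of the other pathway genes in every comparison, and after adjustment it called 798, 53 and 118 of all named genes in the comparisons of FSH with EGFP, of PKA-CQR with EGFP and of PKA-CQR with FSH. The cause was not tested.

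In PKA-CQR over FSH, the log2 difference turned to 0.110 for *Inha* and 0.231 for *Inhbb* with array weights, and to -0.0182 for *Acvr2b* and 0.0118 for *Inhbb* minus *Inha* after a second quantile normalization. With an array left out it ran from -0.104 to 0.0402 for *Inha*, -0.258 to 0.0106 for *Inhba*, -0.202 to 0.112 for *Inhbb*, -0.0307 to 0.0654 for *Acvr2b*, -0.0961 to 0.0568 for *Amh*, -0.298 to 0.0124 for *Inhba* minus *Inha*, -0.0979 to 0.0715 for *Inhbb* minus *Inha* and -0.0483 to 0.370 for *Inhbb* minus *Inhba*. In PKA-CQR over EGFP it ran from -0.120 to 0.0863 for *Tgfbr3*, -0.0924 to 0.181 for *Inhba* minus *Inha* and -0.231 to 0.161 for *Pcsk5*, which was 0.0214 with the replicate block that places EGFP replicate 2 at number 3.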

Other observations

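Among all named genes, those whose log2 signals over the 8 arrays were most like the members' were found by Pearson correlation, given here as a description that largely follows the step from EGFP to the stimulated arrays. *Inha* and *Inhbb* were each other's closest gene, with r = 0.996, followed by *Parg* for *Inha* (0.994) and *Hagh* for *Inhbb* (0.995). For *Inhba* the closest were *Thrb* (0.992) and *Zwint* (0.990), and neither of the other subunit genes was among the closest 2. For *Amhr2* they were *Slc25a28* (0.998) and *Zkscan5* (0.996), and for *Acvr2a* they were *Gspt1* (0.992) and *Popdc3* (0.979).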
